A study of Mus musculus with 12 samples.

Results

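The nuclear genes for the subunits of the mitochondrial respiratory chain and of ATP synthase were examined in bulk RNA sequencing of mouse pituitary. Members were taken by symbol: Ndufa, Ndufb, Ndufc, Ndufs or Ndufv with a number, Sdha to Sdhd, and symbols that begin with Uqcr, Cox4 to Cox8 or Atp5, without pseudogene suffixes. A mean of at least 1 CPM (counts scaled by the library total) over the 12 libraries was also required. Of 89 matching gene IDs, 81 passed, among 16421 genes at that level and 55421 gene IDs in all. They comprised 38 genes of complex I, 4 of complex II, 8 of complex III, 14 of complex IV and 17 of complex V.

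All mice were C57BL/6 and carried floxed Gpr101, a gene for a G protein-coupled receptor, and each had an adeno-associated virus, labelled Cga-cre or Cga-ctrl, as in Cga-creAAVGpr101fl/fl and Cga-ctrlAAVGpr101fl/fl. Cre recombinase cuts out floxed sequence, and Cga encodes the shared alpha subunit of the glycoprotein hormones. Each genotype received AA14, which the series title calls a ligand, or control vehicle for 1 week. The groups, of 3 libraries each, are written cre_AA14, cre_vehicle, ctrl_AA14 and ctrl_vehicle, with the number of the library title after the name. Pituitaries were dispersed into cells and passed through flow cytometry; the age of the mice and the cells that were kept are not stated in the labels. Nor do the labels tie each library to a mouse of its own, so the p-values reflect library-to-library spread, which may be technical.

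The respiratory chain lies in the inner mitochondrial membrane. Complexes I and II pass electrons from NADH and succinate to ubiquinone, complex III passes them on to cytochrome c, and complex IV hands them to oxygen; complexes I, III and IV pump protons, and complex V, the ATP synthase, uses the proton gradient to make ATP. Complex II is coded wholly in the nucleus, whereas the other complexes combine nuclear subunits with a few coded by the mitochondrial genome. In endocrine cells of the pituitary, mitochondria supply ATP for hormone synthesis and secretion.

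Library totals ranged from 48693682 to 73388221 counts, of which the 81 genes made up 0.6285% to 0.8981%. Levels below are CPM after TMM scaling, a factor per library that aligns the bulk of genes. The hormone genes Gh, Prl, Pomc, Tshb, Lhb, Fshb and Cga summed to between 168501 and 319522 CPM, as in pituitary tissue. Gpr101 had between 0.901 and 4.29 CPM in the 6 cre libraries and between 1.22 and 16.1 CPM in the 6 ctrl libraries, so the groups overlapped; the labels do not give the floxed stretch. Libraries differed in ways that cut across groups. Malat1, a long RNA kept in the nucleus, lay between 1105 and 1560 CPM in 5 libraries (all 3 of ctrl_AA14, cre_vehicle 1 and cre_AA14 2) and between 199 and 549 CPM in the other 7. The same split, without overlap, held for Ghrhr, the growth hormone-releasing hormone receptor of somatotrophs (242 to 316 CPM in the 5, against 84.0 to 160 CPM), and for Avp, a hypothalamic peptide gene (1.62 to 2.56 CPM, against 12.1 CPM or more). Avp was 292.6 CPM in ctrl_vehicle 3 and at most 24.6 CPM in every other library. The markers of oligodendrocytes, myelin-forming glial cells, summed to 3429 CPM in cre_vehicle 2, 802 CPM in ctrl_AA14 1 and 2545 CPM in ctrl_vehicle 3, against 80.6 to 476 CPM elsewhere. Lastly, cre_AA14 1 had 717 CPM of the heat-shock gene Hspa1a, against at most 122 CPM elsewhere. In bulk RNA, fewer cells of a type and less RNA per cell cannot be told apart.

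Promoters are shown first, because nuclear respiratory genes are known to be driven by shared factors, chiefly NRF1, GABPA (also called NRF2) and YY1. RefSeq promoters (GRCm38.p6, 250 bases before to 50 after the start) were matched to 66 of the 81 members by symbol and position, giving 71 promoters. In both strands, the NRF1 letters, GCGCA followed at once by its reverse complement TGCGC, were found in 5 of the 71 (7.04%), against 0.971% of all 32851 promoters in the table. The ETS letters CCGGAAG, the core that GABPA reads, were in 16 (22.5%), against 8.86%. The YY1 letters AAGATGGCG were in 7 (9.86%), against 1.40%. For 60 of the 71 promoters, the start of the transcribed part was found in a GENCODE transcript of the gene. It was not found for, among others, Ndufa11, Sdhd and Ndufa9, which hold an NRF1, an ETS and a YY1 match. Those start sites are less certain. A match describes the letters only, and no binding was measured.

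Printed 5′ to 3′ from 250 bases before to 30 after the start are 4 members whose levels lay lower, and 2 whose levels lay higher, in the 5 Malat1-rich libraries; capitals mark matches to the 3 motifs, which do not overlap one another here.
Sdha, chr13:74350211-74350490, minus strand: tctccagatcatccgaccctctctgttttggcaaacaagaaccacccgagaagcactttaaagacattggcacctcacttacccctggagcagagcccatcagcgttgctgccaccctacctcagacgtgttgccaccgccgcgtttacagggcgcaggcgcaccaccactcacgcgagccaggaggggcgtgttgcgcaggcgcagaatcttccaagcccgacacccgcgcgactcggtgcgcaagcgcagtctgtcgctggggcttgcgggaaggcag
Uqcrfs1, chr13:30545287-30545566, minus strand: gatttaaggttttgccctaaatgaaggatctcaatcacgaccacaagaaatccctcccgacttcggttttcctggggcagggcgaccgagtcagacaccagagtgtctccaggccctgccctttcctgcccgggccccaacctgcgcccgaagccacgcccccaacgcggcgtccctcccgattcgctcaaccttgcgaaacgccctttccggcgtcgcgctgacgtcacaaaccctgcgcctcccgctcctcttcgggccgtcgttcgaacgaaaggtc
Cox6a1, chr5:115348929-115349208, minus strand: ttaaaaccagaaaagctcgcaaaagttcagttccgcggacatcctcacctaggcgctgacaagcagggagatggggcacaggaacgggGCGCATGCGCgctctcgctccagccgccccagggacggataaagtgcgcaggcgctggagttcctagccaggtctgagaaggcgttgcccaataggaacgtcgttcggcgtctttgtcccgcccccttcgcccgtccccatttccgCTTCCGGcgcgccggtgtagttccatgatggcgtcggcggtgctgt
Ndufs3, chr2:90904692-90904971, minus strand: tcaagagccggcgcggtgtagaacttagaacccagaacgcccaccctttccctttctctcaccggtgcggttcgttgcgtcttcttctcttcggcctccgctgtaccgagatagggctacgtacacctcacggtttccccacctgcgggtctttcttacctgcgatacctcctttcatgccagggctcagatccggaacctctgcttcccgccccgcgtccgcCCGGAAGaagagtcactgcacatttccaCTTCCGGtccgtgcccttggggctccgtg
Ndufs4, chr13:114388065-114388344, minus strand: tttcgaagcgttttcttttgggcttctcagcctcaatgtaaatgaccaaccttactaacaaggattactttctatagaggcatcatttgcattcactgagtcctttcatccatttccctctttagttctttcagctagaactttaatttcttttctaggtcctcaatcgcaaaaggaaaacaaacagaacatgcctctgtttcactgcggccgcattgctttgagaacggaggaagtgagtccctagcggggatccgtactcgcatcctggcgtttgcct
Ndufs7, chr10:80249199-80249478, plus strand: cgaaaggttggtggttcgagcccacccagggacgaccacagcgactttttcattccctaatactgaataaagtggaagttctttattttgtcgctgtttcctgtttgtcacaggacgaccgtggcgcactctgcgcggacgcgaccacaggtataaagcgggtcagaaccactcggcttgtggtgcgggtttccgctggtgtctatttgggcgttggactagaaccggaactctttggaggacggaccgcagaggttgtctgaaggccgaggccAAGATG
Cox6a1 holds NRF1 and ETS letters, Ndufs3 holds the ETS letters on each strand, and Sdha and Uqcrfs1 hold none of the 3 motifs. The YY1 match of Ndufs7 runs past the end of the printed stretch, and that of Ndufs4 lies beyond it. Among members with a matched promoter, YY1 letters were in 2 of 3 that lay higher and 0 of 11 that lay lower in those libraries, and NRF1 letters in 0 of 3 and 2 of 11; these numbers are too small for a comparison.

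The respiratory chain genes as a whole were steady. The standard deviation (SD) of log2(CPM + 0.5) over the 12 libraries had a median of 0.187 over the members, against 0.280 over the 10690 genes that averaged 10 CPM or more, and 59 of the 81 lay under that second value. Complex I was the steadiest by this measure, with a median SD of 0.169 and 32 of 38 members under it. Complexes II and IV had medians of 0.250 and 0.252, with 2 of 4 and 7 of 14 under it. The members were not held to a mean of 10 CPM. In complex IV, Cox4i2, Cox7a1 and Cox6b2 averaged 1.13, 1.17 and 2.92 CPM, and their SDs were 0.345, 0.285 and 0.282. In complex I, Ndufa4l2 averaged 2.49 CPM, with an SD of 0.326. The part of low counts in these medians was not tested. Sdhd, which anchors complex II in the membrane, had the smallest SD of all members, 0.0897, with a highest library 1.23 times its lowest. Cox8a, a small complex IV subunit, ranged from 153 to 189 CPM (SD 0.0937). At the other end stood Cox5a (SD 0.605), Sdhc (0.589), Atp5d (0.586), Uqcrc1 (0.554), Atp5a1 (0.528) and Ndufb8 (0.513).

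**Figure D1:**
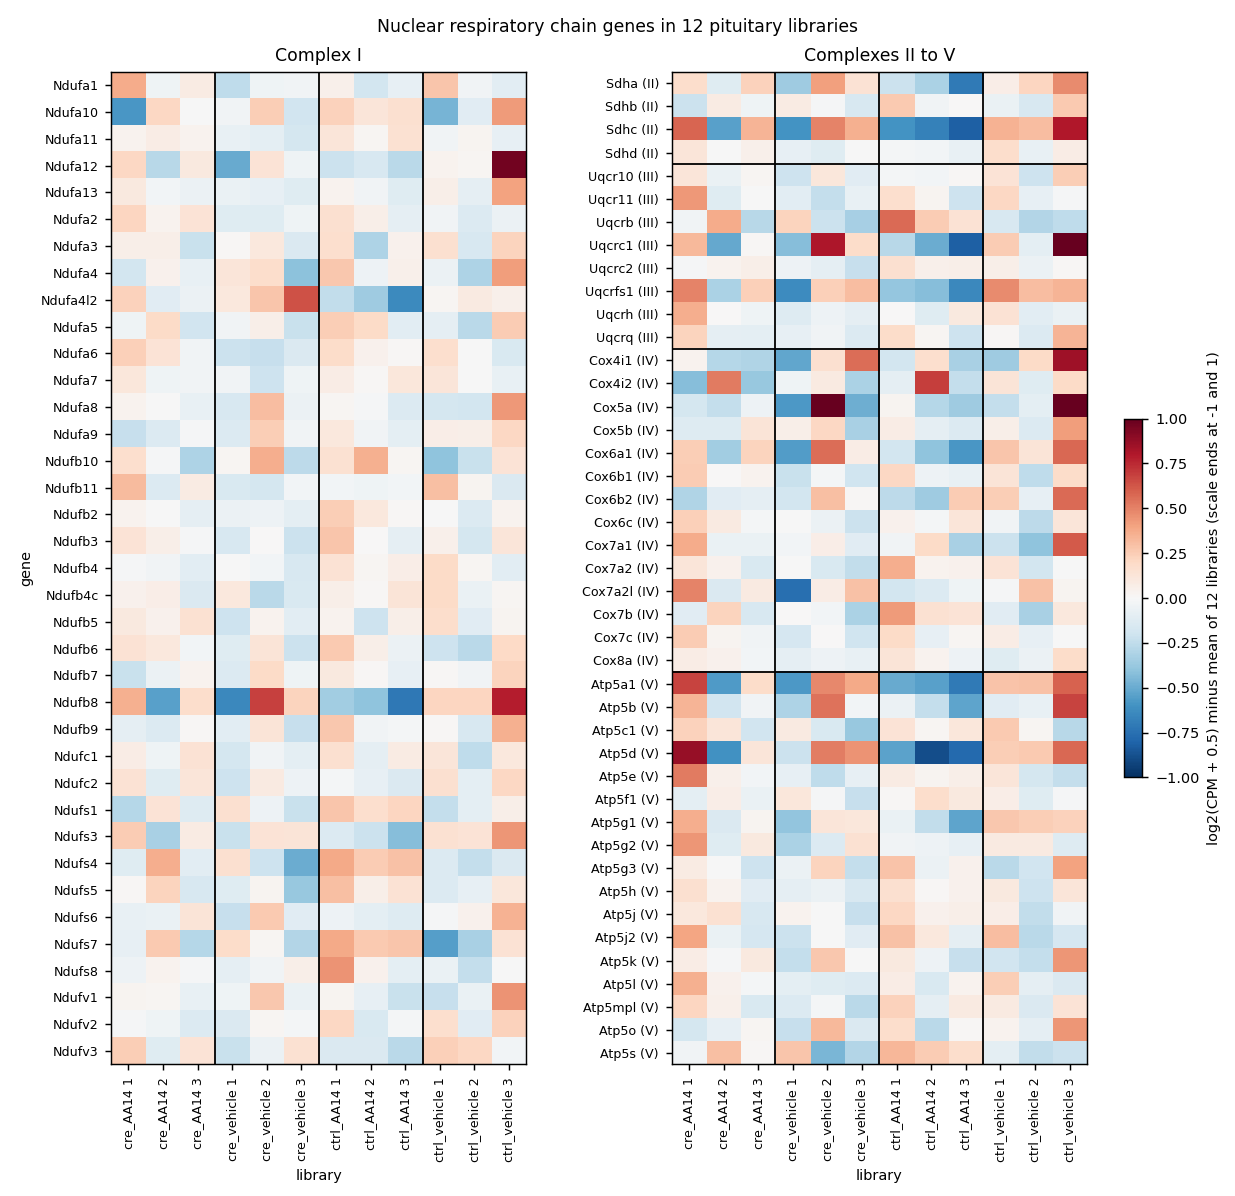
Each cell is the log2(CPM + 0.5) of 1 gene (rows, by complex; 1 member is not drawn) in 1 library (columns, by group) minus that gene's mean over the 12 libraries; red is above and blue below the mean, and the colour scale ends at -1 and 1. Most rows are pale, and rows such as Sdhc, Ndufb8, Atp5a1 and Atp5d are blue in the same 5 libraries.

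Summed over its 38 nuclear genes, complex I came to 2295 ± 65.9 CPM in cre_AA14, 2202 ± 132 CPM in cre_vehicle, 2318 ± 130.2 CPM in ctrl_AA14 and 2347 ± 199 CPM in ctrl_vehicle (mean ± SD, n = 3 each). The complex II sum was 556, 463 and 562 CPM in cre_AA14, 417, 606 and 534 CPM in cre_vehicle, 456, 418 and 361 CPM in ctrl_AA14, and 532, 544 and 667 CPM in ctrl_vehicle. The 3 ctrl_AA14 libraries lay below the 3 ctrl_vehicle libraries without overlap, and cre_vehicle 1 and cre_AA14 2 were the lowest of their own groups. Sdha and Sdhc make up most of that difference between the ctrl groups. Their means were 214 and 33.0 CPM in ctrl_AA14 against 338 and 76.3 CPM in ctrl_vehicle. Sdhb averaged 85.7 against 82.2 CPM and Sdhd 78.9 against 84.7 CPM, both with overlapping libraries. The complex III sum spanned 629 to 808 CPM, the complex IV sum 1147 to 1775 CPM and the complex V sum 1972 to 2944 CPM over all libraries, with cre_vehicle 1 lowest in complexes III and IV and ctrl_AA14 3 lowest in complex V. For complex V, too, the ctrl_AA14 sums (1972 to 2241 CPM) lay below those of ctrl_vehicle (2311 to 2807 CPM), but 9 of its 17 genes had positive log2 fold changes, with a median of 0.05. The abundant Atp5a1 and Atp5b, at 317 ± 23.2 and 316 ± 50.2 CPM in ctrl_AA14 against 624 ± 76.6 and 439 ± 145 CPM in ctrl_vehicle (SD, n = 3 each), make up most of that difference. The 13 protein genes of the mitochondrial genome summed to 51585 ± 9059.7 CPM in cre_AA14, 57009.6 ± 6032 CPM in cre_vehicle, 61984 ± 2380.4 CPM in ctrl_AA14 and 51289.5 ± 6332 CPM in ctrl_vehicle. Their sum was between 4.98 times (cre_AA14 1) and 9.27 times (ctrl_AA14 3) that of the 81 nuclear genes.

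**Figure D2:**
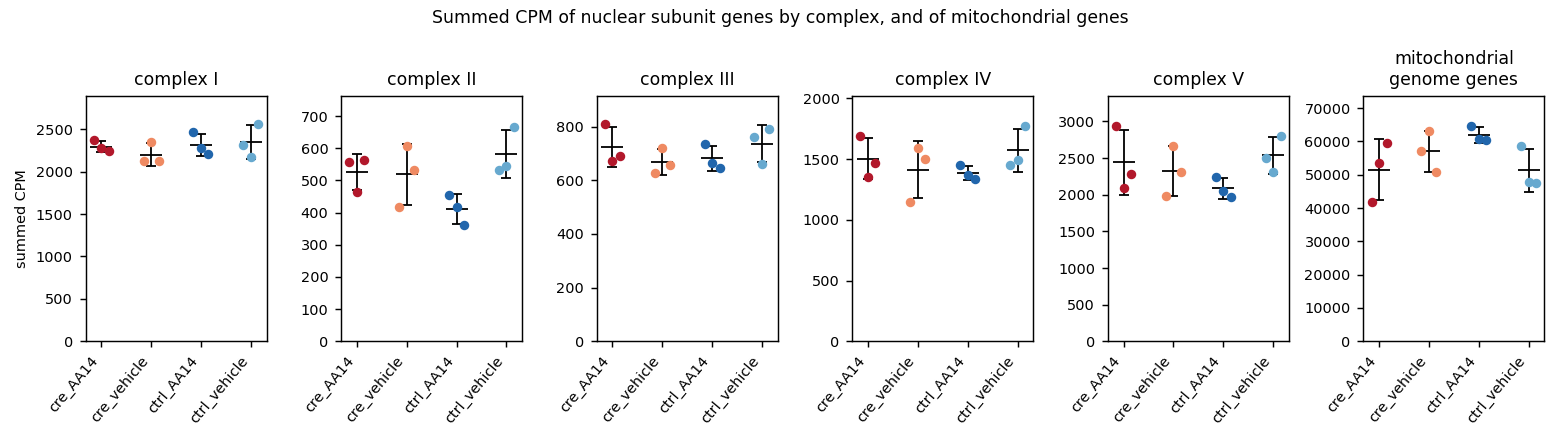
Summed CPM of the nuclear genes of each complex, and of the 13 mitochondrial genome protein genes, in each library (points), with the group mean and SD (bars, n = 3); each axis starts at 0. The ctrl_AA14 points lie below the ctrl_vehicle points without overlap for complex II (361 to 456 against 532 to 667 CPM, mostly Sdha and Sdhc). They also do so for complex V (1972 to 2241 against 2311 to 2807 CPM, mostly Atp5a1 and Atp5b), and lie above for the mitochondrial genes.

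The catalytic and core subunits differed in how they varied. Ndufv1, which binds NADH, was highest in ctrl_vehicle 3, at 68.9 CPM, and lay between 42.8 and 60.6 CPM elsewhere. Sdhb is the iron-sulfur subunit of complex II. Sdhb had 69.4, 85.4 and 78.6 CPM in cre_AA14, 85.7, 80.3 and 72.2 CPM in cre_vehicle, 97.3, 78.8 and 81.0 CPM in ctrl_AA14, and 77.4, 72.3 and 96.9 CPM in ctrl_vehicle. It was between 69.4 and 97.3 CPM with overlapping groups, while its partners Sdha and Sdhc were not even.

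Sdhc (ENSMUSG00000058076, chromosome 1, 171127165 to 171150603), the other membrane anchor of complex II, split the libraries. Sdhc had 80.5, 36.8 and 68.2 CPM in cre_AA14, 35.4, 76.1 and 69.0 CPM in cre_vehicle, 35.3, 33.4 and 30.3 CPM in ctrl_AA14, and 68.5, 66.5 and 93.8 CPM in ctrl_vehicle. Every ctrl_AA14 library, cre_vehicle 1 and cre_AA14 2 lay at 36.8 CPM or less, and the other 7 at 66.5 CPM or more. Sdha (the flavoprotein that oxidises succinate) had 318, 259.9 and 332 CPM in cre_AA14, 219.8, 375 and 312 CPM in cre_vehicle, 243, 226 and 173 CPM in ctrl_AA14, and 295, 328 and 391 CPM in ctrl_vehicle. Here too the same 5 libraries were the lowest, but the gap between 259.9 and 295 CPM was narrower.

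The same 5 libraries were the lowest in both outlying complex V genes. Atp5a1 (alpha subunit of the catalytic head) had 758, 321 and 539 CPM in cre_AA14, 318, 662 and 616 CPM in cre_vehicle, 334, 326 and 290.3 CPM in ctrl_AA14, and 577, 582 and 712 CPM in ctrl_vehicle. Atp5d (delta subunit of the central stalk) had 95.9, 34.1 and 56.8 CPM in cre_AA14, 44.9, 74.6 and 71.4 CPM in cre_vehicle, 35.8, 28.1 and 30.2 CPM in ctrl_AA14, and 61.9, 62.6 and 77.9 CPM in ctrl_vehicle. The catalytic partner Atp5b did not follow them closely: it was between 263 and 363 CPM in these 5 libraries and between 350.2 and 606 CPM in the other 7, so the ranges overlapped. Exons of Atp5a1 and Atp5d overlap opposite-strand genes, Haus1 and Cbarp, and the strand setting of the counting is not stated.

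In complex III the core protein Uqcrc1 and the Rieske iron-sulfur protein Uqcrfs1 behaved alike, and the ubiquinone-binding subunit Uqcrb the other way round. Uqcrfs1 had 109, 61.9 and 91.4 CPM in cre_AA14, 49.6, 91.1 and 95.6 CPM in cre_vehicle, 58.9, 57.2 and 49.1 CPM in ctrl_AA14, and 107, 95.9 and 98.0 CPM in ctrl_vehicle. Uqcrc1 had 76.5, 42.7 and 61.4 CPM in cre_AA14, 45.3, 107 and 69.4 CPM in cre_vehicle, 50.1, 43.1 and 34.4 CPM in ctrl_AA14, and 72.6, 57.0 and 126 CPM in ctrl_vehicle. Uqcrb had 73.7, 97.7 and 62.4 CPM in cre_AA14, 88.5, 65.2 and 60.1 CPM in cre_vehicle, 112, 90.0 and 83.6 CPM in ctrl_AA14, and 67.5, 61.7 and 63.4 CPM in ctrl_vehicle. Uqcrc2, the other core protein, had an SD of 0.0986 and a highest library only 1.31 times its lowest, so members of 1 complex did not vary together.

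Across all 81 members, 13 were lower in each of the 5 Malat1-rich libraries than in each of the other 7: Ndufa12, Ndufb8, Ndufs3 and Ndufv3 in complex I, Sdha and Sdhc in complex II, Uqcrc1 and Uqcrfs1 in complex III, Cox6a1 and Cox7a2l in complex IV, and Atp5a1, Atp5d and Atp5g1 in complex V. Among the 22630 genes tested, 13.1% were lower in this way, against 16.0% of the members. Ndufs1, Ndufs4, Ndufs7, Uqcrb and Atp5s were higher in each of the 5, which makes 5 of 81, against 9.23% of all genes. In all, 18 of 81 members (22.2%) and 22.4% of all genes had ranges that did not overlap, so the share among the respiratory chain genes was near that of all genes. These 18 were named after their values were seen, and the 5 libraries are defined by Malat1 and are not a group of the study.

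Complex I members were found on both sides. Ndufb8 (an accessory subunit) had 50.2, 26.7 and 44.3 CPM in cre_AA14, 24.8, 63.1 and 45.7 CPM in cre_vehicle, 30.5, 29.4 and 23.6 CPM in ctrl_AA14, and 45.4, 45.4 and 67.6 CPM in ctrl_vehicle. Ndufs4 (an accessory subunit whose loss causes Leigh-like disease in mice) had 39.7, 55.8 and 40.2 CPM in cre_AA14, 48.3, 37.4 and 30.5 CPM in cre_vehicle, 56.3, 51.8 and 53.1 CPM in ctrl_AA14, and 39.3, 36.5 and 39.0 CPM in ctrl_vehicle. Ndufs7 (a core iron-sulfur subunit) had 49.7, 63.0 and 43.0 CPM in cre_AA14, 59.6, 53.2 and 42.8 CPM in cre_vehicle, 68.4, 63.2 and 63.6 CPM in ctrl_AA14, and 35.7, 41.9 and 58.1 CPM in ctrl_vehicle. Ndufb8 was at 30.5 CPM or less in the 5 Malat1-rich libraries and at 44.3 CPM or more in the others, whereas Ndufs4 was at 48.3 CPM or more in the 5 and at 40.2 CPM or less in the others. For Ndufs7 the gap was small, between 59.6 CPM in cre_vehicle 1 and 58.1 CPM in ctrl_vehicle 3. Ndufs1, the largest core subunit, was between 123 and 135 CPM in the 5 and between 91.6 and 116 CPM in the others; its exons overlap those of Eef1b2 on the other strand.

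Transcript composition was set beside these 2 sides as a description, and their ranges overlapped. The longest annotated transcripts of the 13 lower genes had a median GC content of 51.3% (range 46.8% to 62.7%), those of the 5 higher genes 43.1% (40.2% to 59.6%) and those of the remaining 63 genes 50.4% (37.0% to 63.3%). Members were short, with a median transcript length of 1001 bp against 3570 bp over the genes that averaged 10 CPM or more. The lower genes had a median of 2021 bp and the remaining 63 a median of 908 bp. The part of GC content and length in the differences between libraries was addressed only through trend corrections in the fits, which are given below for some comparisons.

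**Figure D3:**
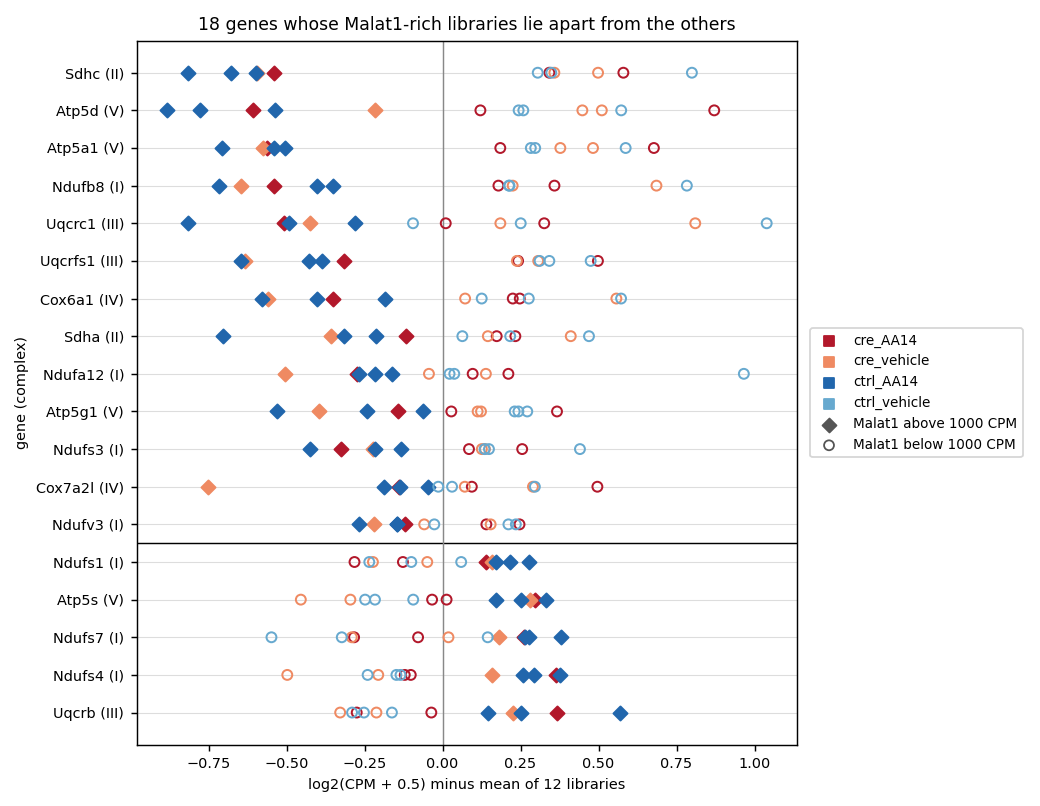
Log2(CPM + 0.5) minus the mean of the 12 libraries for the 18 genes whose Malat1-rich libraries (filled diamonds, 5) do not overlap the other 7 (open circles); colours give the group. The filled diamonds lie left of the circles in the upper 13 genes and right of them in the lower 5, with the widest gaps in Sdhc, Atp5a1 and Uqcrfs1.

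The library with the most members at their maximum was ctrl_vehicle 3, with 32 of 81 (39.5%), against 19.8% of all genes tested. In cre_AA14 1, 19 members (23.5%, against 11.4% of genes) were at their maximum, among them Ndufa1, Ndufb11, Uqcr11, Uqcrh, Cox6b1, Cox7c, Atp5e, Atp5j2 and Atp5l. In ctrl_AA14 1 there were 18 (22.2%, against 4.89% of genes), among them Sdhb, Cox7a2, Cox7b, Atp5h and Atp5j. No member had its lowest level in cre_AA14 2, cre_AA14 3, ctrl_AA14 1 or ctrl_vehicle 3. The minima of 15 members (18.5%) lay in cre_vehicle 3, against 5.59% of genes, of 15 in ctrl_AA14 3, against 14.9% of genes, and of 14 (17.3%) in ctrl_vehicle 2, against 3.73% of genes.

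Cox5a, a matrix-side subunit of complex IV, had a pattern of its own. Cox5a had 17.7, 16.9 and 19.3 CPM in cre_AA14, 13.3, 44.7 and 14.1 CPM in cre_vehicle, 20.4, 16.4 and 15.5 CPM in ctrl_AA14, and 16.9, 18.7 and 51.4 CPM in ctrl_vehicle. Only ctrl_vehicle 3 and cre_vehicle 2 exceeded 20.4 CPM, and these are the libraries richest in oligodendrocyte markers. In all, 16 members (19.8%) were higher in both of these libraries than in each of the other 10, against 12.7% of genes; they include Ndufv1, Ndufb8, Sdha, Uqcrc1, Cox5b, Cox6a1, Atp5b and Atp5o. Atp5b (catalytic beta subunit) had 478, 331 and 370.0 CPM in cre_AA14, 306, 553 and 371 CPM in cre_vehicle, 363, 321 and 263 CPM in ctrl_AA14, and 350.2, 359 and 606 CPM in ctrl_vehicle. Of the 10 oligodendrocyte markers all were detected, and their summed level was 90.5 to 476 CPM in cre_AA14, 88.3 to 3429 CPM in cre_vehicle, 80.6 to 802 CPM in ctrl_AA14 and 121 to 2545 CPM in ctrl_vehicle. Their part in these levels was not tested. Cox4i1, the common form of subunit 4, was likewise highest in ctrl_vehicle 3, at 249.8 CPM, but next in cre_vehicle 3, at 204 CPM, with few oligodendrocyte markers (169 CPM).

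The first comparison, ctrl_AA14 against ctrl_vehicle, asks what AA14 did in mice with the control virus. No member passed an adjusted p of 0.05 (edgeR quasi-likelihood test, Benjamini-Hochberg adjustment over 22630 genes), where 0.00442% of all genes did. The members were divided, with 38 positive and 43 negative log2 fold changes, a median of -0.03 and a range of -1.21 to 0.57; the median over all genes was -0.02. At an unadjusted p under 0.05 there were 16 members, 12 lower and 4 higher, against 23.8% of all genes (15.8% lower, 8.03% higher). Groups did not overlap for 21 members (25.9%), 15 lower and 6 higher, against 37.7% of genes (20.1% lower, 17.6% higher). Both shares of members lay under those of all genes.

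Largest on the lower side was Sdhc, at 33.0 ± 2.54 CPM in ctrl_AA14 and 76.3 ± 15.2 CPM in ctrl_vehicle (SD, n = 3 each), a log2 fold change of -1.21 (standard error, SE, 0.32; edgeR adjusted p = 0.141). Atp5d averaged 31.4 ± 3.98 CPM in ctrl_AA14 and 67.4 ± 9.04 CPM in ctrl_vehicle, with -1.10 (SE 0.32; edgeR adjusted p = 0.141). For Uqcrfs1 the means were 55.1 ± 5.23 and 100.4 ± 6.17 CPM in ctrl_AA14 and ctrl_vehicle, with -0.87 (SE 0.25; edgeR adjusted p = 0.141). Uqcrc1 averaged 42.6 ± 7.87 CPM in ctrl_AA14 and 85.1 ± 36.0 CPM in ctrl_vehicle. The log2 fold change was -0.98 (SE 0.31) for Atp5a1, -0.92 (SE 0.33) for Ndufb8, -0.72 (SE 0.26) for Cox6a1 and -0.66 (SE 0.21) for Sdha, all without overlap and with edgeR adjusted p between 0.141 and 0.154. On the higher side stood Uqcrb (0.57, SE 0.20), Ndufs7 (0.53, SE 0.21) and Ndufs4 (0.49, SE 0.18), with edgeR adjusted p between 0.145 and 0.167. All of these are members whose Malat1-rich libraries did not overlap the rest, and every ctrl_AA14 library and no ctrl_vehicle library is Malat1-rich, so in ctrl mice AA14 and that state of the libraries cannot be told apart.

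The number of calls in this comparison depended on the test. A fit of the groups compared only called 8 members, DESeq2 5 (Atp5a1, Atp5d, Sdha, Sdhc and Uqcrfs1) and limma-voom with quality weights 16, out of 2266, 2299 and 3409 genes called. By complex, the median log2 fold change was 0.00 in complex I, -0.38 in complex II, -0.06 in complex III, -0.08 in complex IV and 0.05 in complex V, with 38, 4, 8, 14 and 17 members. Upper-quartile scaling, which raised the median of all genes to 0.11, gave a member median of 0.10 with 55 positive and 26 negative members. Library totals gave -0.09 against -0.08 over all genes, with 27 and 54. A GC trend correction gave 0.11 against 0.06 over all genes, and a transcript-length trend correction gave -0.05 against 0.08.

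**Figure D4:**
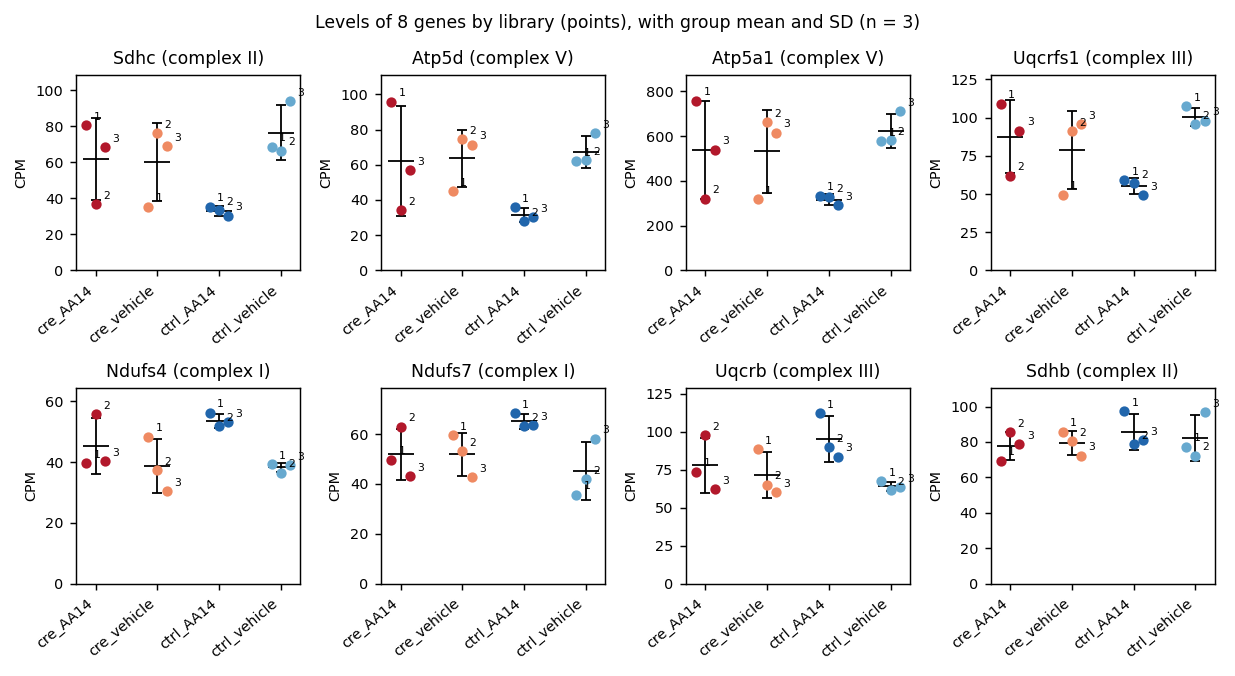
CPM of 8 genes in each library (points, numbered as in the titles), with group mean and SD (bars, n = 3); axes start at 0. In Sdhc, Atp5d, Atp5a1 and Uqcrfs1 the 3 ctrl_AA14 points lie below the 3 ctrl_vehicle points with cre_vehicle 1 and cre_AA14 2 beside them, in Ndufs4, Ndufs7 and Uqcrb the ctrl_AA14 points lie above, and the groups of Sdhb overlap.

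The second comparison, cre_AA14 against cre_vehicle, asks the same in mice with the cre virus. No member passed (edgeR adjusted p of 0.05), nor did any gene (0%); at an unadjusted p under 0.05, 1 member, higher in cre_AA14, and 2.29% of genes did (1.20% higher, 1.09% lower). DESeq2 and limma-voom also called 0 members. Fold changes were small and mostly positive: 56 members were positive and 25 negative, against 49.7% positive and 50.3% negative over all genes, with a median of 0.10 against -0.002. Scaling by library totals gave 46 positive and 35 negative, with a median of 0.05 against -0.05 over all genes. The member median depended on single libraries: it was 0.03 without cre_AA14 1 (49 positive, 32 negative), 0.05 without cre_vehicle 1, and 0.16 without cre_vehicle 2 (75 positive, 6 negative). Without the 3 oligodendrocyte-rich libraries it was 0.15 (74 and 7). Groups did not overlap for 12 members, all higher in cre_AA14, which is 14.8% of members against 3.32% of genes higher and 5.86% in all. They are Ndufa2, Ndufa6, Ndufa11, Ndufa13 and Ndufb5 of complex I, Sdhd, Uqcrc2 and Uqcrh, Cox6b1 and Cox8a, and Atp5e and Atp5l.

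Ndufa6, an accessory subunit of complex I, came first by p. Ndufa6 had 87.6, 81.9 and 72.7 CPM in cre_AA14, 64.1, 63.5 and 67.4 CPM in cre_vehicle, 84.6, 76.7 and 75.0 CPM in ctrl_AA14, and 83.4, 74.0 and 66.8 CPM in ctrl_vehicle. All 3 cre_AA14 libraries lay above all 3 cre_vehicle libraries, and both ctrl groups overlapped the cre_AA14 range; the log2 fold change between the cre groups was 0.31 (SE 0.13; edgeR adjusted p = 1.00). Atp5e, the small epsilon subunit of the ATP synthase stalk, averaged 121 ± 26.2 CPM in cre_AA14 and 95.8 ± 6.54 CPM in cre_vehicle (SD, n = 3 each), with 0.34 (SE 0.16); its highest value, 151 CPM, was in cre_AA14 1. Ndufa2, a further accessory subunit, averaged 77.1 ± 4.83 CPM in cre_AA14 and 65.9 ± 2.04 CPM in cre_vehicle, with 0.23 (SE 0.11). With a transcript-length trend in the offsets the member median was 0.00, against 0.03 over all genes, with 42 positive and 39 negative members, so the lean to positive values did not hold under that correction. No member was without overlap in both genotypes.

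The genes outlying in ctrl mice did not separate the cre groups. Sdhc averaged 61.8 ± 22.6 CPM in cre_AA14 and 60.2 ± 21.8 CPM in cre_vehicle, with a log2 fold change of 0.04 (SE 0.31). Each of these groups holds 1 Malat1-rich library, at 36.8 CPM in cre_AA14 and 35.4 CPM in cre_vehicle. For Atp5d the log2 fold change was -0.03 (SE 0.32), for Atp5a1 0.02 (SE 0.31) and for Uqcrfs1 0.15 (SE 0.25).

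The difference between the AA14 effects, cre minus ctrl, was tested as an interaction. No member passed (edgeR adjusted p of 0.05; 0.00442% of genes did). At an unadjusted p under 0.05 there were 7 members, all positive: Sdha, Sdhc, Uqcrfs1, Ndufv3, Atp5a1, Atp5d and Atp5g1, which is 8.64% of members against 7.03% of genes (4.86% positive, 2.17% negative). Sdhc differed by 1.25 (SE 0.44; edgeR adjusted p = 0.631), being the AA14 effect of 0.04 in cre mice minus -1.21 in ctrl mice. Uqcrfs1 differed by 1.02 (SE 0.36) and Atp5g1, which codes for the ring subunit c, by 0.65 (SE 0.26). In the other direction the smallest unadjusted p values belonged to Ndufs7 (-0.52, SE 0.29), Uqcrb (-0.44, SE 0.28) and Ndufs1 (-0.36, SE 0.21). The 7 positive members all lay lower in the Malat1-rich libraries, and Ndufs7, Uqcrb and Ndufs1 all lay higher there. Those libraries are every ctrl_AA14 library, cre_vehicle 1 and cre_AA14 2, and no ctrl_vehicle library. A difference between the AA14 effects and that state of the libraries therefore cannot be told apart. DESeq2 and limma-voom called 0 members here too. The median over members was 0.11 and over all genes 0.03; 57 members were positive and 24 negative, against 52.3% and 47.7% of genes. With upper-quartile scaling the member median was 0.01 against -0.06 over all genes, with 43 positive and 38 negative members. With a GC trend correction it was 0.01 against -0.03, with 41 and 40. These settings therefore lowered the median of all genes as well. The member median was 0.06 without ctrl_vehicle 3 (47 and 34), 0.07 without cre_AA14 1, 0.18 without ctrl_AA14 1 and 0.19 without ctrl_vehicle 2 (66 and 15). With the replicate number as a block, 2 members in place of 7 had an unadjusted p under 0.05, and between 2 and 14 did with 1 library left out.

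The cre effect under vehicle, cre_vehicle against ctrl_vehicle, asks what the cre virus did without the ligand. Members lay slightly lower almost throughout: 70 of 81 (86.4%) had a negative log2 fold change, against 53.8% of all genes, with a median of -0.12 against -0.02. All 14 members of complex IV and all 4 of complex II were negative, as were 30 of 38 of complex I, 7 of 8 of complex III and 15 of 17 of complex V. The shift was small beside the spread: the sum over all members was 7121 ± 817 CPM in cre_vehicle and 7775 ± 739 CPM in ctrl_vehicle (SD, n = 3 each), with overlapping libraries. No member passed (edgeR adjusted p of 0.05; 0.00442% of genes did), and at an unadjusted p under 0.05 there were 0 members against 2.00% of genes (0.932% higher, 1.06% lower), and 0 members passed in DESeq2 and limma-voom. Under the scalings and trend corrections run, between 56 and 74 members were negative. Without ctrl_vehicle 3, which holds the maximum of 32 members, 50 were negative and 31 positive, with a median of -0.04. Leaving out single libraries gave member medians between -0.18 and -0.04.

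Some marker lists of other cell types also leaned to one side in this comparison, and others did not. Endothelial markers had 5 positive and 5 negative log2 fold changes, oligodendrocyte markers 6 and 4, and germ cell markers 2 and 3. Skeletal muscle markers had 10 and 3, and adipocyte markers 2 and 1. All 10 macrophage markers were negative (median -0.32), with sums of 150 to 174 CPM in cre_vehicle and 167 to 235 CPM in ctrl_vehicle. Of 12 mural cell markers 9 were negative (median -0.43), with sums of 217 to 272 CPM in cre_vehicle and 206 to 344 CPM in ctrl_vehicle. All 5 red cell genes were positive (median 1.25), with sums of 3272 to 7782 CPM in cre_vehicle and 1235 to 4252 CPM in ctrl_vehicle. The part of these cells in the members' levels was not tested.

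Groups did not overlap for 3 members (3.70%, against 4.92% of genes, 2.39% higher and 2.53% lower). Ndufa4l2, a paralog of Ndufa4 known as a hypoxia-induced gene, lay higher, and it is weakly expressed. Ndufa4l2 had 2.92, 2.19 and 2.31 CPM in cre_AA14, 2.65, 3.04 and 4.05 CPM in cre_vehicle, 1.96, 1.79 and 1.38 CPM in ctrl_AA14, and 2.46, 2.60 and 2.53 CPM in ctrl_vehicle. Its log2 fold change in cre_vehicle against ctrl_vehicle was 0.36 (SE 0.26; edgeR adjusted p = 1.00). Uqcrfs1 (-0.35, SE 0.25) and Atp5g1 (-0.28, SE 0.19) lay lower. Exons of Ndufa4l2 overlap Shmt2 on the other strand.

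Under AA14 the cre effect, cre_AA14 against ctrl_AA14, shares its libraries with the first 2 comparisons, as all 5 comparisons draw on the same 4 groups. No member passed (edgeR adjusted p of 0.05), nor did any gene (0%). Of the members, 42 were positive and 39 negative, against 49.4% positive over all genes, with a median of 0.01 against -0.01. Upper-quartile scaling gave 30 positive and 51 negative, with a median of -0.06 against -0.08 over all genes. At an unadjusted p under 0.05 there were 5 members, all higher in cre_AA14 (Sdha, Sdhc, Uqcrfs1, Atp5a1 and Atp5d), against 8.52% of genes (7.08% higher, 1.44% lower). All 5 lay lower in the Malat1-rich libraries, which hold every ctrl_AA14 library but, of cre_AA14, only cre_AA14 2. With the replicate number as a block there were 3, and with limma-voom 15. Leaving out 1 library gave between 0 (without cre_AA14 1) and 13 (without cre_AA14 2). Groups did not overlap for 9 members (11.1%, against 14.1% of genes, 7.30% higher and 6.76% lower): Ndufa4l2, Ndufv3, Sdha, Sdhc, Sdhd and Uqcrfs1 higher, and Ndufb4, Ndufs1 and Ndufs7 lower. Sdhc, at 61.8 ± 22.6 CPM in cre_AA14 and 33.0 ± 2.54 CPM in ctrl_AA14, had a log2 fold change of 0.91 (SE 0.32; edgeR adjusted p = 0.582), and Sdha one of 0.50 (SE 0.21). With DESeq2 and limma-voom, again, 0 members were called. Ndufs7 had -0.33 (SE 0.20), Ndufs1 -0.30 (SE 0.15) and Ndufb4 -0.13 (SE 0.12). Without the Malat1-rich libraries cre_vehicle 1 and cre_AA14 2, an alternative chosen after seeing the data, edgeR called 1874 genes and 4 members (Sdhc, Uqcrfs1, Atp5a1 and Atp5d); the cre_AA14 libraries left are then all Malat1-poor and the ctrl_AA14 libraries all Malat1-rich.

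**Figure D5:**
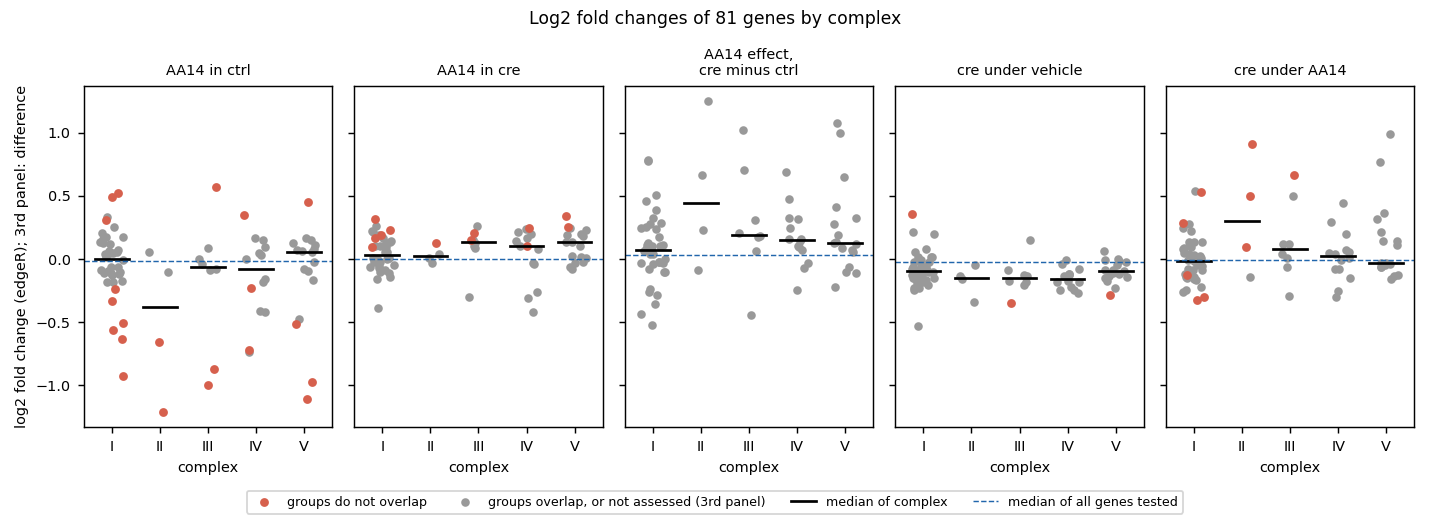
Log2 fold changes of the 81 genes (points) by complex in the 5 comparisons, where the panel headed cre minus ctrl is the difference between the AA14 effects; black bars are medians by complex and the dashed line is the median of all genes tested. Points for AA14 in ctrl mice run from -1.21 to 0.57, 70 of 81 lie below 0 for cre under vehicle, and red points mark groups without overlap (not assessed for the difference).

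Tissue isoforms of complex IV, which muscle, lung or testis use in place of the common form, were compared per kilobase of exon. Cox4i2, the lung form of subunit 4, took a median of 1.47% of the Cox4i2 and Cox4i1 total per kilobase. Cox6b2, a testis form, took 2.20% of its pair with Cox6b1, and Cox7a1, a heart and muscle form, took 2.90% of its pair with Cox7a2. The muscle forms Cox6a2 and Cox8b, both under the 1 CPM limit, took 0.0871% of the pair with Cox6a1 and 0.256% of the pair with Cox8a. Cox7b2 and Cox8c, known from testis, had 50 and 3 counts in all over the 12 libraries. In complex I, Ndufa4l2 took 4.79% of its pair with Ndufa4, a subunit that is by function now placed in complex IV. The highest share in any library was 10.02% for Ndufa4l2, and among the complex IV tissue forms it was 4.95%, for Cox7a1. Skeletal muscle markers summed to between 9.07 and 43.9 CPM over the 12 libraries.

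Per kilobase of exon, the median level over the 12 libraries ranged from 2.28 CPM for Ndufa4l2 to 166 CPM for Ndufb11 in complex I, and from 20.7 CPM for Sdhc to 73.5 CPM for Sdha in complex II. In complex III it ranged from 14.3 CPM for Uqcrc1 to 106 CPM for Uqcr10, in complex IV from 1.28 CPM for Cox4i2 to 291 CPM for Cox6a1, and in complex V from 8.67 CPM for Atp5s to 178 CPM for Atp5a1. Atp5s, known as coupling factor B, is an auxiliary protein and not a core subunit. Just under the level limit stood Cox6c2, with a mean of 0.84 CPM, and just over it Cox4i2, with 1.13 CPM. Ndufb4c, at 18.8 CPM per kilobase, is annotated as a processed pseudogene, and its reads can be shared with Ndufb4. Cox7a2l, which helps to build supercomplexes of complexes III and IV and is known to be shortened in C57BL/6 mice, had a median of 260.2 CPM per kilobase. Not divided by length, it was lowest in cre_vehicle 1, at 227 CPM, against 336 CPM or more elsewhere.

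Genes that serve the chain lay on both sides in ctrl mice too, where 23.8% of all genes had an unadjusted p under 0.05 (8.03% higher, 15.8% lower). Of 47 assembly factors tested, 5 were higher and 5 lower at an unadjusted p under 0.05 in ctrl_AA14 against ctrl_vehicle, with a median of 0.03; the smallest p values were those of Atpaf1 (-1.03, SE 0.33), which helps to assemble the ATP synthase head, and Sdhaf1 (-0.85, SE 0.28), which matures Sdhb. Of 23 electron carriers and partner proteins outside the rule, 1 was higher and 3 lower; Coq6, of ubiquinone synthesis, had 0.71 (SE 0.23) and Cyc1, the cytochrome c1 of complex III, -0.77 (SE 0.27). Of 18 genes of the tricarboxylic acid cycle and its entry, 1 was higher and 3 lower, with Dlat at -0.98 (SE 0.33). Of 15 nuclear regulators, 0 were higher and 3 lower; the estrogen-related receptor Esrra had -1.18 (SE 0.33) and Yy1 -0.70 (SE 0.22), and Nrf1 and Gabpa were not among them. None of these genes passed an adjusted p of 0.05 (edgeR), in this or the other 4 comparisons.

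In the other comparisons few genes of these lists had a small p. In cre_AA14 against cre_vehicle, 2 of 47 assembly factors (Sco2 and Ndufaf1) and no gene of the other 3 lists had an unadjusted p under 0.05. The copper chaperone Sco2, of complex IV assembly, had a log2 fold change of 2.28 (SE 0.61; edgeR adjusted p = 1.00), and also -2.16 (SE 0.61) in cre_vehicle against ctrl_vehicle. These 2 values of Sco2 share the cre_vehicle libraries, with opposite sign, so they are not separate results. In cre_AA14 against ctrl_AA14 the counts were 2 higher and 1 lower among assembly factors and 1 higher among regulators, Yy1 at 0.49 (SE 0.22).

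The mitochondrial genome's own subunit genes all lay on the higher side in ctrl mice, as did nuclear members such as Uqcrb and Ndufs7, and opposite to Sdhc and Atp5d. In ctrl_AA14 against ctrl_vehicle all 13 had positive log2 fold changes, with a median of 0.39, 6 of them at an unadjusted p under 0.05, led by mt-Co2 (0.52, SE 0.14; edgeR adjusted p = 0.141) and mt-Atp6 (0.47, SE 0.13). The lowest of the 13 was 0.06, and scaling by library totals put the median of all genes at -0.08 in place of -0.02. mt-Co2 had 3463 to 3982 CPM in the 5 Malat1-rich libraries and 2468 to 3153 CPM in the other 7, while the ranges of mt-Atp6 overlapped. Every ctrl_AA14 library and no ctrl_vehicle library is Malat1-rich, so here too AA14 and that state of the libraries cannot be told apart. In cre_AA14 against cre_vehicle 12 of 13 were negative, with a median of -0.15, and in the interaction all 13 were negative, with a median of -0.56, 7 of them at an unadjusted p under 0.05. The 13 genes summed to 41714, 53519 and 59521 CPM in cre_AA14 and to 57049, 63021 and 50958 CPM in cre_vehicle. The sum in cre_AA14 1 was the lowest of all libraries, and the other cre_AA14 sums lay within the cre_vehicle range. Fold changes of these genes without cre_AA14 1 are not given. In cre_vehicle against ctrl_vehicle all 13 were positive, with a median of 0.22 and none at that p. In cre_AA14 against ctrl_AA14 all 13 were negative, with a median of -0.33, 4 at that p and 9 without overlap. Of all genes, 8.52% were at that p and 14.1% were without overlap in that comparison. mt-Nd5, a complex I subunit, had 1222, 5609.8 and 7146 CPM in cre_AA14, 6503, 6823 and 5434 CPM in cre_vehicle, 6427, 6868 and 6142 CPM in ctrl_AA14, and 6891, 5575 and 3994 CPM in ctrl_vehicle. It and mt-Nd6 were far lower in cre_AA14 1 than in the other 11 libraries, with mt-Nd6 at 169 CPM against 845 CPM or more. The nuclear complex I sum of cre_AA14 1, at 2369 CPM, was within the range of the other libraries, 2121 to 2562 CPM.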

How the data were processed

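Raw counts per gene, 1 table per library, were deposited by the authors; reads were mapped with HISAT2 2.0.0, per the labels' protocols, and featureCounts 1.5.0-p3, DESeq 1.8.3 and the build GRCm38 are named in the submitters' processing notes. The annotation and the strand setting are not stated; coordinates are those of GENCODE M21 (GRCm38). Of 55421 gene IDs, 55154 were matched to symbols, with at most 0.0135% of any library in the others. The counts were tested with edgeR 4.0.16 (filterByExpr, 22630 genes; TMM; 1 mean per group over the 12 libraries; quasi-likelihood F test; Benjamini-Hochberg adjustment at 0.05). Each SE was derived from the fold change and its F statistic. The procedure was run on simulated counts without any state shared between libraries, such as the Malat1 split, so that run does not bear on such splits. Alternatives were other scalings, filters, tests (DESeq2 1.42.0, limma-voom 3.58.1), GC and length trends, a replicate block and left-out libraries, including the 3 with a mean log2 level of oligodendrocyte markers above 5. Members named are core subunits, tissue isoforms, the extremes of level in each complex, and, in each comparison, up to 3 in each direction of smallest p among groups without overlap; others were chosen after their values were seen. 1 member that this rule names is not reported here. The members and lists were chosen with earlier results of these data known.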

Additional observations from a re-analysis of the deposited data

How the results depend on the processing

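The reported fit called 0 members in each of the 5 comparisons, so there was no called member that could change sign. Member medians near 0 did change sign. For AA14 in ctrl mice the median was -0.03 in the reported fit and lay between -0.11 and 0.03 with 1 library left out. For cre under AA14 the member median was 0.01 in the reported fit and -0.06 with upper-quartile scaling, where the median of all genes was -0.08. Of the values for single named members, 481 kept their direction and side of the threshold under an alternative and 16 newly passed it. These members were picked in the same libraries by smallest p, outside the interaction only among groups without overlap. Their steady direction was thus largely fixed in advance and is no independent check. Of the summary values, 264 stayed close to the reported one, 37 counts of calls were over 1.5 times it or above a reported 0, 4 counts were lower by as much, and 4 medians moved by more than the spread between libraries. For AA14 in ctrl mice, members called were 8 with the groups compared only, 5 with DESeq2 and 16 with limma-voom, with 2266, 2299 and 3409 genes called; the genes called were 2 with library totals, with no low-count filter, with the GC trend and after dropping the 3 oligodendrocyte-rich libraries, 0 among genes averaging 10 CPM or more, and 1 to 5 with 1 library left out, against 1. The member median was 0.0994 with upper-quartile scaling and 0.109 with the GC trend, against 0.113 and 0.0615 over all genes. For AA14 in cre mice, genes called were 1 without the oligodendrocyte-rich libraries, 14 with DESeq2 and 0 to 2 with 1 library left out, against 0. For the interaction, genes called were 0 with limma-voom and among genes averaging 10 CPM or more, 3 without the oligodendrocyte-rich libraries, 26 with DESeq2 and 1 to 3 with 1 library left out. The interaction's member median was 0.0139 with upper-quartile scaling and 0.00783 with the GC trend, against -0.0630 and -0.0281 over all genes. For cre under vehicle, genes called were 2 with RLE scaling, library totals, the GC trend, limma-voom and without cre_vehicle 1 and cre_AA14 2, 0 among genes averaging 10 CPM or more, 3 without the oligodendrocyte-rich libraries, 19 with DESeq2 and 1 to 3 with 1 library left out. For cre under AA14, 4 members and 1874 genes were called without cre_vehicle 1 and cre_AA14 2, an alternative chosen after seeing the data, and genes called were 1 with the groups compared only, 34 with DESeq2 and 0 to 1 with 1 library left out. The cause was not tested. With the replicate number as a block, 0 members were called in each of the 5 comparisons, and members with an unadjusted p under 0.05 numbered 13 in place of 16 for AA14 in ctrl mice, 2 in place of 7 for the interaction and 3 in place of 5 for cre under AA14. The labels do not say whether the numbers pair the libraries. The deviations of 18 same-numbered pairs correlated between -0.51 and 0.33, with 5 above 0.1. Some libraries of unlike number correlated more strongly. The value was 0.62 for the oligodendrocyte-rich cre_vehicle 2 and ctrl_vehicle 3, and 0.61 for the Malat1-rich cre_AA14 2 and cre_vehicle 1. Such differences between libraries can hide a pairing, so these correlations cannot decide it. The median SE of a member's log2 fold change was 0.16 between groups of 3, which limits what these comparisons could detect.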
